A study of Mus with 6 samples.

Results

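The Hox gene clusters of the mouse hold 6 miRNA precursor genes between or within their protein-coding genes, and the mature strands of these precursors were followed across adipocyte small RNA libraries. Members were taken by name: every entry of miR-10a, miR-10b, miR-196a, miR-196b or miR-615 in the deposited count tables. The rule found 10 strand names among the 929 known miRNA names that all 6 tables list. The libraries fall into 2 groups of 3. The first group was exposed to chronic intermittent hypoxia (CIH), in which oxygen drops and recovers in cycles, as in obstructive sleep apnoea. The second is labelled control. Wild-type adipocytes of strain C57BL/6 are given for both groups. The fat depot, the age and sex of the mice, the number of animals per library and the oxygen protocol were not stated in the sources at hand, and no label says that libraries of a group came from separate animals or cultures. The p-values therefore rest on library-to-library spread, part or all of which may be technical.

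Hox genes encode transcription factors that give cells their position along the body axis, and fat depots of the adult keep different combinations of them switched on. The miRNA genes keep matching places between the clusters, and their products are known to repress Hox messages. miR-196a cuts the Hoxb8 message in mouse embryos and represses Hoxc8 in mouse fat, where it was reported to favour beige adipocytes. miR-10a and miR-10b have mature 5p strands that differ at a single base and share the seed, the stretch that finds targets. In every such hairpin one strand is usually loaded into the Argonaute protein as the guide, and the other, the passenger, is mostly degraded.

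Total counts ran from 6291101 to 11264151 per library, and levels below are CPM (counts scaled to a library total of 1000000). A count of 3, taken as the floor of each library, corresponds to 0.266 to 0.477 CPM. The libraries numbered 3 in either group stood apart: across 456 miRNAs, log2 CPM correlated at 0.976 to 0.991 among the 4 libraries numbered 1 and 2, at 0.917 to 0.932 between these and the libraries numbered 3, and at 0.923 between the 2 libraries numbered 3. Their tables also list 1186 names in place of 1053. Results are therefore given for all 6 libraries, for the libraries numbered 1 and 2, and as values for the pair numbered 3. All 9 miRNAs fixed as markers of adipocytes were above the floor in every library, and they include miRNAs that other cells also make. Of the 4 leukocyte markers, 0 were above the floor in all libraries, and their sum did not pass 4.29 CPM. The 6 stromal markers summed to 68374 CPM in CIH library 3 and 6677 CPM in control library 3, against 11641 and 11854 CPM in the other CIH libraries and 14218 and 17019 CPM in the other control libraries. In bulk RNA, fewer cells of a type and less RNA per cell cannot be told apart.

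All 6 precursors were found in the RefSeq gene table of GRCm38.p6. Mir10b lies on chromosome 2 (74726070 to 74726137) in the Hoxd cluster, inside the annotated spans of both Hoxd4 and Hoxd3. Mir10a lies on chromosome 11 (96317165 to 96317274) in the Hoxb cluster, inside the span of Hoxb3 and 993 bases from Hoxb4, so the 2 miR-10 genes lie at matching places, by Hoxd4 and Hoxb4. Mir196a-1 is also in the Hoxb cluster (chromosome 11, 96265164 to 96265265), in the long gap between Hoxb13 and Hoxb9 and inside the lncRNA gene Gm51876. Its copy Mir196a-2 lies on chromosome 15 (102973350 to 102973434) between Hoxc10 and Hoxc9, and the 5p strand carries 1 name for both loci. Mir196b lies on chromosome 6 (52230081 to 52230165) between Hoxa9 and Hoxa10, inside the lncRNA gene Gm52902. Mir615 lies on chromosome 15 (103014910 to 103015001) inside the span of Hoxc5.

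**Figure D1:**
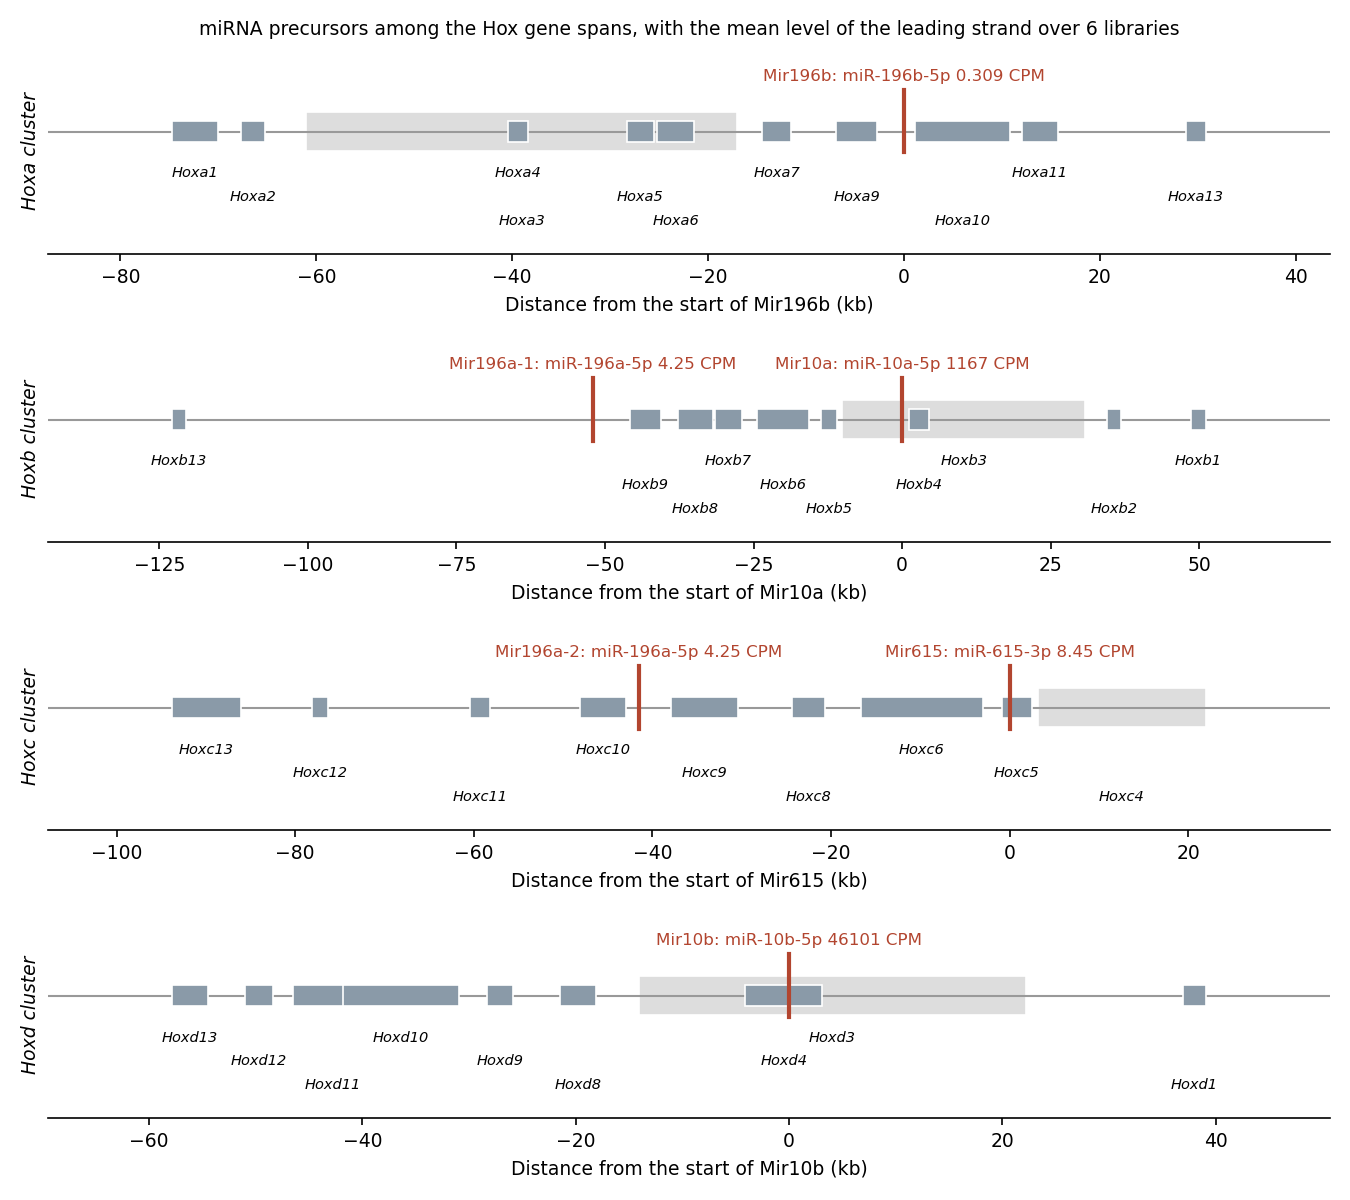
Map of the 4 Hox clusters, with the distance in kb from the start of 1 precursor per cluster on the x axis. Grey boxes are the annotated spans of Hox genes (pale and tall where longer than 15 kb), and red lines mark the miRNA precursors with the mean CPM of the leading strand over 6 libraries, from 46101 CPM for miR-10b-5p in Hoxd to 0.309 CPM for miR-196b-5p in Hoxa.

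The counts of mature strands from the 4 clusters were very unequal, and miR-10b of the Hoxd cluster supplied nearly all of them. The 10 names together took 3.69%, 3.37% and 5.91% of CIH libraries 1, 2 and 3, and 3.26%, 3.82% and 8.39% of control libraries 1, 2 and 3. The Hoxd cluster, through miR-10b, gave 95.8% to 98.2% of these counts in each library. Hoxb gave 1.74% to 4.21% through miR-10a, Hoxc at most 0.0447% through miR-615, Hoxb or Hoxc at most 0.0203% through miR-196a, and Hoxa at most 0.00165% through miR-196b. Mature strands are of nearly equal length, so CPM was compared between names without a length correction. Such comparisons also carry any difference in cloning between strands, which was not tested.

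The guide strand mmu-miR-10b-5p (miR-10b-5p for short, as with the other names), which represses HOXD10 in human breast cancer cells, was among the 6 most abundant miRNAs of every library. It stood at 36009.8, 32930.3 and 56547 CPM in CIH libraries 1, 2 and 3, against 31753, 37358 and 82007 CPM in control libraries 1, 2 and 3. The groups overlapped, and the library numbered 3 was the highest of its group in both. Its share was 5.65% (95% Wilson interval 5.64% to 5.67%) of CIH library 3 and 8.20% (8.18% to 8.22%) of control library 3, intervals that cover counting error only. Its rank among all miRNAs was 4 in each CIH library, and 6, 6 and 2 in control libraries 1, 2 and 3. Among non-members, the means over 6 libraries that exceeded its 46101 CPM were those of miR-21a-5p, miR-148a-3p, miR-143-3p and miR-146b-5p, from 322837 down to 65975 CPM, and miR-378a-3p followed it with 30233 CPM.

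Its paralog mmu-miR-10a-5p, which shares the seed and so is predicted to find the same targets, stood at 733, 614 and 2482 CPM in CIH libraries and 634, 659 and 1880 CPM in control libraries. Again the libraries numbered 3 were the highest, and the groups overlapped. The passenger strand mmu-miR-10b-3p went the other way: it stood at 169.7, 129 and 80.4 CPM in CIH libraries 1, 2 and 3 and at 147, 118 and 33.5 CPM in control libraries 1, 2 and 3, lowest in the libraries numbered 3. mmu-miR-10a-3p, the passenger of miR-10a, was counted in few reads, at 5.18, 3.29 and 7.64 CPM in CIH libraries (38, 33 and 86 counts) and 4.61, 3.29 and 0.969 CPM in control libraries (29, 32 and 8 counts).

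The other members were rare. miR-615-3p, the leading strand of the Hoxc5 precursor, stood at 16.2, 8.27 and 2.75 CPM in CIH libraries 1, 2 and 3 and at 7.31, 8.02 and 8.11 CPM in control libraries. The 3 control libraries lay close together and inside the CIH range. mmu-miR-196a-5p stood at 1.77, 0.598 and 11.5 CPM in CIH libraries (13, 6 and 130 counts) and at 3.50, 1.34 and 6.78 CPM in control libraries (22, 13 and 56 counts), with the libraries numbered 3 highest in both groups. mmu-miR-196b-5p, a strand of the same family made from the Hoxa cluster, had 1, 1 and 11 counts in CIH libraries and 1, 0 and 4 counts in control libraries, so it passed the floor in the libraries numbered 3 alone.

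Passenger names of miR-196a and miR-615 were at or under the floor almost everywhere. miR-196a-1-3p, which tells the Hoxb copy from the Hoxc copy, had 0, 4 and 5 counts in CIH libraries and 0, 3 and 1 counts in control libraries. miR-196a-2-3p, which marks the Hoxc copy, had 0 counts in all 3 CIH libraries, which allows up to 0.266 to 0.409 CPM, and 0, 2 and 1 counts in control libraries. With so few reads the share of either locus in miR-196a-5p was not measurable. miR-615-5p had 2, 0 and 0 counts in CIH libraries and 0, 1 and 1 counts in control libraries.

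By their ranges over the 6 libraries, the members fell into clear levels. miR-10b-5p was above miR-10a-5p, miR-10a-5p above miR-10b-3p and miR-10b-3p above miR-615-3p in every library, without overlap of the ranges. The ranges of miR-615-3p, miR-196a-5p and miR-10a-3p overlapped, from 0.598 to 16.2 CPM in all, and these 3 cannot be ordered beyond their spread. In all, 6 of the 10 names passed the floor in all 6 libraries, and the same 6 passed the filter on low counts and were tested. The other 4 (miR-196b-5p, both 3p names of miR-196a and miR-615-5p) were at or under the floor in some library and have values only.

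**Figure D2:**
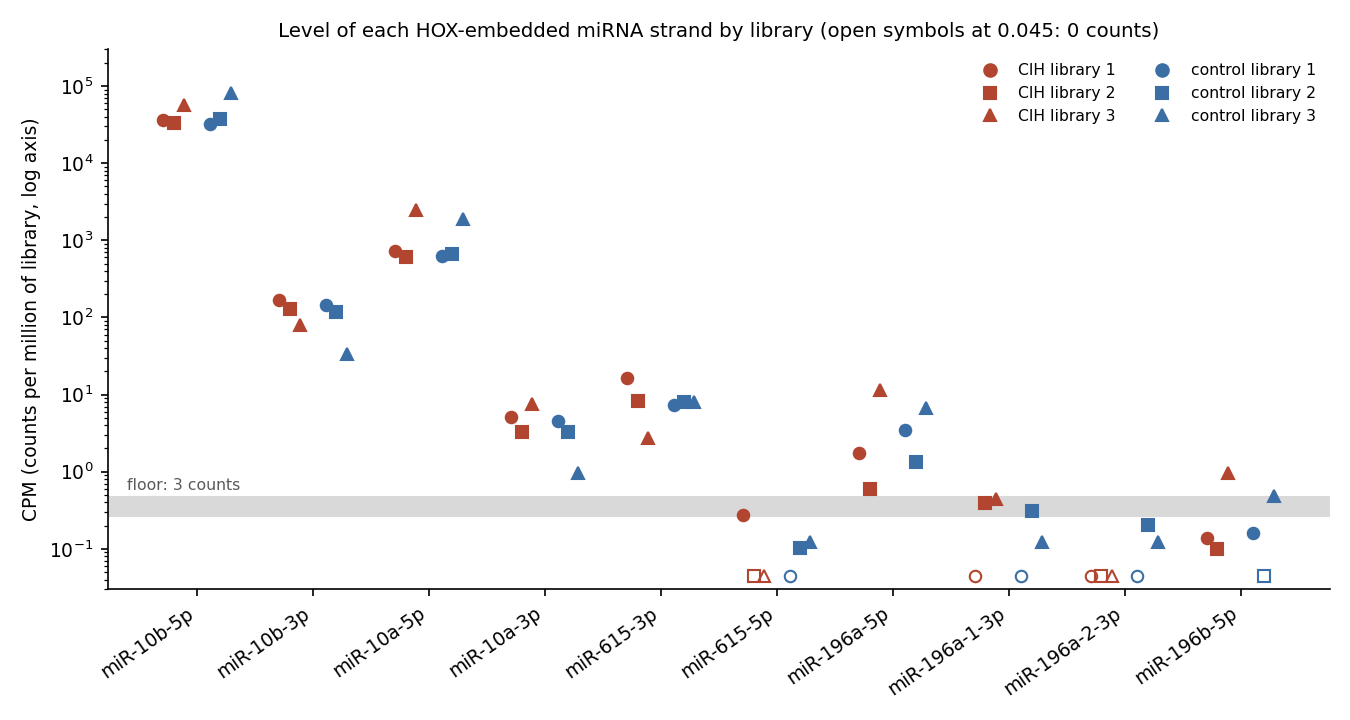
CPM on a log axis for the 10 strand names, with a symbol for each library (circle, square and triangle for libraries 1, 2 and 3), CIH in red left of control in blue. The grey band is the level of 3 counts (0.266 to 0.477 CPM), and the triangles of both groups are highest for miR-10b-5p, miR-10a-5p and miR-196a-5p and lowest for miR-10b-3p.

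Between CIH and control no tested member differed beyond the spread of the libraries. In all 6 libraries, 0 of 456 miRNAs (0%) and 0 of the 6 members passed edgeR's quasi-likelihood test. At an unadjusted p under 0.05 there were 23 miRNAs, of which 0 were members. DESeq2 and limma-voom also called 0 members. The mean of miR-10b-5p over 3 CIH libraries was 41829 ± 12839 CPM (SD), against 50373 ± 27539 CPM over 3 control libraries; the log2 difference was -0.69 (SE 0.71, adjusted p = 0.934). miR-10a-5p averaged 1276 ± 1046 CPM in CIH and 1058 ± 712 CPM in control, with a log2 difference of -0.21 (SE 0.84, adjusted p = 0.988) after TMM scaling and 0.27 on total counts. miR-10a-3p had the largest value, 0.82 (SE 0.56, adjusted p = 0.899), and miR-10b-3p stood at 0.34 (SE 0.52), miR-196a-5p at -0.20 (SE 1.15; 0.27 on total counts) and miR-615-3p at -0.04 (SE 0.70; 0.21 on total counts). The CPM ranges of CIH and control overlapped for all 10 names, of which 6 were tested. Over all miRNAs tested they were apart for 51 of 456 (11.2%). With so few members a count of 0 is near that share, so it does not set the members apart. Control library 3 decided the sign of miR-10b-5p: without it the value was 0.40.

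Within the libraries numbered 1 and 2, where 43 of 459 miRNAs were called (9.37%), the count of members called was 0 by edgeR's quasi-likelihood test, by DESeq2 and by limma-voom. At an unadjusted p under 0.05, edgeR's test had 99 of 459 miRNAs, of which 1 was a member. DESeq2 had 74 and limma-voom 95, of which 0 were members. With 6 members tested, a count of 1 does not set them apart from all miRNAs. miR-10b-5p differed by 0.14 (SE 0.21, adjusted p = 0.757) and miR-10a-5p by 0.20 (SE 0.21, adjusted p = 0.638), both within their error, and on total counts the value of miR-10b-5p was -0.00357. miR-10b-3p stood at 0.31 (SE 0.24), miR-10a-3p at 0.23 (SE 0.42) and miR-196a-5p at -0.89 (SE 0.69). miR-615-3p was that member, with a log2 difference of 0.77 (SE 0.37, adjusted p = 0.230). That value rested on CIH library 1, at 16.2 CPM: without it the log2 difference was 0.38, and without CIH library 2 it was 1.10. Each of these fits had 1 CIH library left.

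The pair numbered 3 gives values with no spread of their own, larger in size than in the libraries numbered 1 and 2 for all 4 miR-10 strands and miR-615-3p, and smaller for miR-196a-5p. After TMM scaling, miR-10b-5p stood at 50944 CPM in CIH library 3 and 129023 CPM in control library 3, a log2 difference of -1.34 (-0.54 on total counts). miR-615-3p stood at -2.15 (-1.40 on total counts) and miR-10a-3p at 1.87 (2.47 on total counts). For miR-10a-5p the sign depended on the scaling, at -0.40 after TMM scaling and 0.40 on total counts, and for miR-196a-5p it did too, at -0.04 and 0.73.

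The difference between the 2 CIH effects was tested as an interaction of group and set, in a fit that takes its spread from the 4 libraries numbered 1 and 2 and which called 138 of 456 miRNAs (30.3%). It was called for 2 of the 6 members, near the share over all miRNAs, so the count does not set the members apart. For miR-10b-5p the CIH effect was lower in the pair numbered 3 by a log2 difference of -1.48 (SE 0.36, adjusted p = 0.00198), and for miR-615-3p by -3.13 (SE 0.67, adjusted p = 0.000536; edgeR's quasi-likelihood test). On total counts miR-10b-5p was no longer called (-0.53, adjusted p = 0.282), whereas miR-10a-3p was called in the other direction (2.86, adjusted p = 0.0269), against 1.93 (adjusted p = 0.0719) with TMM. That scaling moved the median of all tested miRNAs to 0.998, against 0.06 with TMM, and relative to the median the value of miR-10b-5p was -1.53 on total counts and -1.54 with TMM. With 1 library of each group in the pair, this counts any difference between these libraries and cannot be told apart from an effect of CIH.

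**Figure D3:**
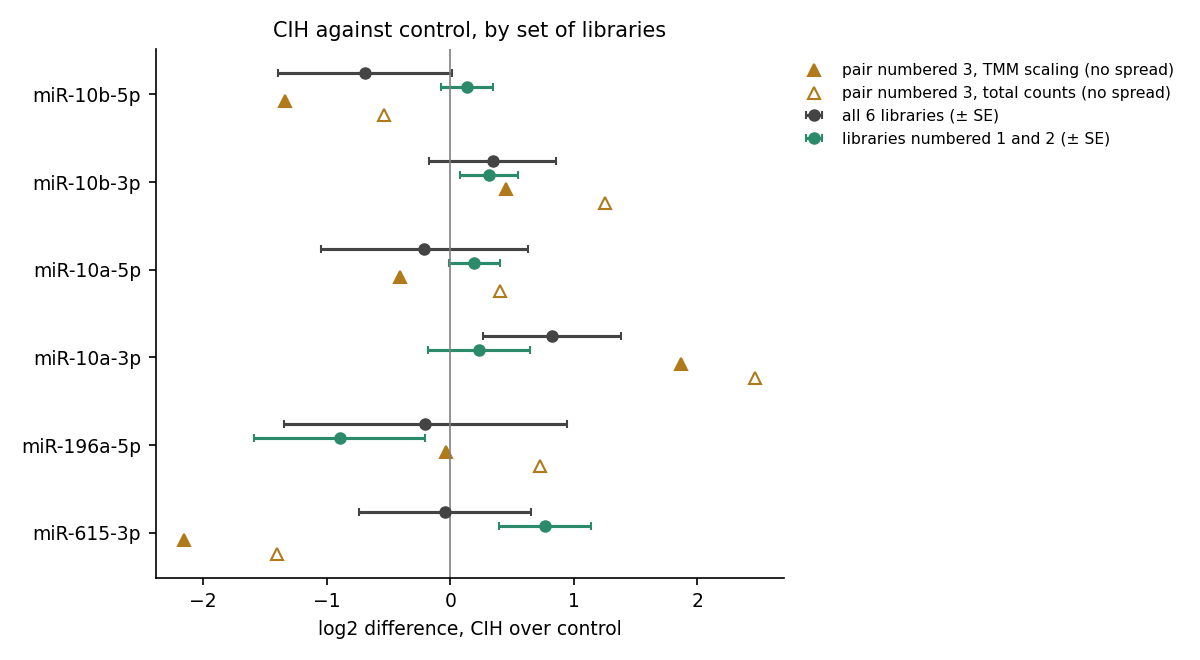
log2 difference of CIH over control (x axis) for the 6 tested members, as estimates with SE bars for all 6 libraries (dark) and for the libraries numbered 1 and 2 (green), and as triangles for the pair numbered 3, filled after TMM scaling and open on total counts. All SE bars of the dark estimates but that of miR-10a-3p reach across 0, and the triangles of miR-10b-5p (-1.34 and -0.54) and miR-615-3p (-2.15 and -1.40) lie below 0.

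The guide strands of miR-10a, miR-10b and miR-196a were higher in the libraries numbered 3 of both groups, and the passenger miR-10b-3p was lower. With group in the model, miR-196a-5p was higher in the libraries numbered 3 than in those numbered 1 and 2 by a log2 difference of 2.82 (SE 0.53, adjusted p = 0.0177), miR-10a-5p by 2.10 (SE 0.28, adjusted p = 0.00961) and miR-10b-5p by 1.42 (SE 0.37, adjusted p = 0.0350), and miR-10b-3p was lower (-1.05, SE 0.29, adjusted p = 0.0432; edgeR's quasi-likelihood test). Of the 6 members, 3 were thus called higher and 1 lower, where 11.4% of all tested miRNAs were called higher and 13.6% lower. The libraries numbered 3 were already known to stand apart in these same counts, so these p-values describe that split and are no independent test of it. miR-10a-3p (0.01, SE 0.58; -0.25 on total counts) and miR-615-3p (-0.36, SE 0.77) were not called. The median over all tested miRNAs was -0.11, and -0.49 on total counts, where miR-10a-5p alone of the members was called (1.71, adjusted p = 0.0276). There miR-196a-5p stood at 2.47 (adjusted p = 0.0539), miR-10b-5p at 0.99 (adjusted p = 0.0618) and miR-10b-3p at -1.40 (adjusted p = 0.0730). The call of miR-10b-3p was also lost with RLE size factors (-0.86, adjusted p = 0.0736), without the filter (-1.17, adjusted p = 0.0603) and with the set alone in the model (-1.04, adjusted p = 0.0580).

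These calls depended on single libraries. Without CIH library 2 the count of members called was 0, where 2 of 470 miRNAs were called. Without control library 1 it was 0, where 2 of 483 miRNAs were called. It was 1 without CIH library 1, with 34 of 483 miRNAs called, and 2 without control library 2, with 30 of 471. The count of all miRNAs called thus fell too, so these counts do not set the members apart. miR-10a-5p kept values of 1.82 to 2.47 whichever library was left out, and miR-196a-5p of 2.49 to 3.28. miR-10b-5p stood at 0.64 without control library 3 and 2.17 without CIH library 3 (each time with 1 library left to stand for the set). miR-615-3p stood at -2.18 without control library 3 and at 1.001 without CIH library 3, in these same fits.

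What distinguishes the sets beyond the number and the list of names was not stated in the sources at hand. The 9 adipocyte markers summed to 326772 CPM in CIH library 3 and 637899 CPM in control library 3, against 168692 and 187193 CPM in the other CIH libraries and 246297 and 259602 CPM in the other control libraries. Their sum was thus highest in the libraries numbered 3 of both groups, as the guides miR-10a-5p, miR-10b-5p and miR-196a-5p were. Most of the sum in control library 3 was miR-148a-3p, at 493520 CPM, which went down to 28100 CPM in the lowest of the 6 libraries. The sum therefore does not show that the other adipocyte markers were highest there. In the same libraries the stromal markers were high in CIH and low in control (68374 and 6677 CPM). The 7 epithelial markers summed to 18.6 CPM in CIH library 3 and 76.3 CPM in control library 3, against 126 and 169.6 CPM in the other CIH libraries and 334 and 408.5 CPM in the other control libraries, with miR-141-3p and miR-429-3p at 0 in some of the 6. The part of these cells in the levels of the members was not tested.

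As relatives of miR-10 that lie outside the Hox clusters, miR-99a-5p, miR-99b-5p and miR-100-5p were set beside the members. Their differences between the sets were 0.49 (SE 0.31), 0.72 (SE 0.31) and 0.57 (SE 0.26), with adjusted p from 0.135 to 0.281, so 0 of 3 were called by edgeR's quasi-likelihood test. Between CIH and control 0 of 3 were called in all 6 libraries, with log2 differences from -0.11 to 0.52, and 0 of 3 in the libraries numbered 1 and 2, from -0.07 to 0.29. In the edgeR interaction fit, which called 30.3% of all miRNAs and has 1 library per group in the pair numbered 3, miR-99a-5p stood at 1.005 (adjusted p = 0.0289) and miR-99b-5p at -0.91 (adjusted p = 0.0491), so a difference between these 2 libraries cannot be told apart from one in the CIH effect.

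**Figure D4:**
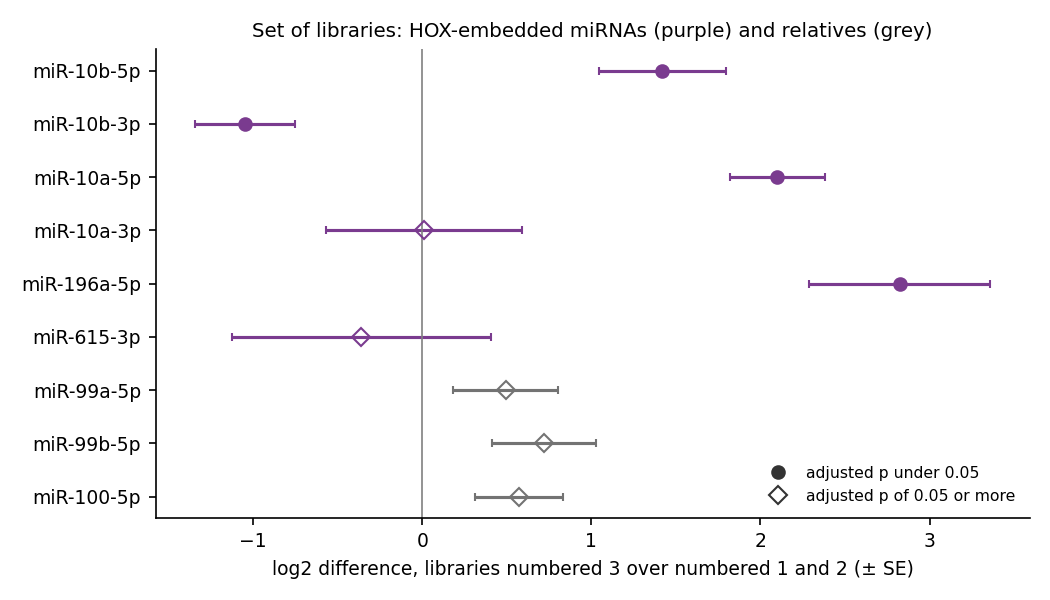
log2 difference of the libraries numbered 3 over those numbered 1 and 2 (x axis, bars are SE) for the 6 tested members (purple) and the 3 miR-99 and miR-100 strands (grey). Filled circles passed an adjusted p of 0.05: miR-10b-5p, miR-10a-5p and miR-196a-5p lie to the right of 0 and miR-10b-3p to the left.

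The balance of miR-10a and miR-10b compares mature strands made from Hoxb with those made from Hoxd within a library and needs no scaling. Transcription of the 2 genes was not measured. miR-10a gave 1.99%, 1.83% and 4.20% of the 5p counts of miR-10a and miR-10b in CIH libraries 1, 2 and 3, and 1.96%, 1.73% and 2.24% in control libraries 1, 2 and 3. CIH library 3 stood out, with a 95% Wilson interval of 4.16% to 4.25%, and the other 5 libraries lay within 1.73% to 2.24%. The mean log2 ratio of miR-10a-5p to miR-10b-5p was -5.29 ± 0.68 in CIH and -5.64 ± 0.19 in control (SD, n = 3 each), a difference of 0.35 (p = 0.6 by the two-sided exact permutation test, 0.7 after adjustment over 6 ratios). Without CIH library 3 the difference was -0.04. With 3 libraries against 3, the smallest p an exact permutation test allows is 0.1.

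The same balance can be read from the passenger strands, whose sequences differ more between the 2 genes, in a comparison added after the values were seen. miR-10a gave 2.96%, 2.49% and 8.67% of the 3p counts in CIH libraries 1, 2 and 3 (95% Wilson interval of the last 7.07% to 10.6%), and 3.05%, 2.72% and 2.81% in control libraries 1, 2 and 3 (1.43% to 5.44% for control library 3, from 8 counts). CIH library 3 was thus the highest on both strands, with an interval clear of the other 5. The log2 ratio of the 3p strands differed by 0.49 between CIH and control (two-sided exact permutation p = 0.8). How reads that match both 5p names were counted was not stated in the sources at hand, so the 5p share of miR-10a may hold reads of miR-10b.

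The share of the passenger strand was lowest in the libraries numbered 3. The 3p strand made up 0.469%, 0.390% and 0.142% of miR-10b counts in CIH libraries 1, 2 and 3, and 0.460%, 0.314% and 0.0409% in control libraries 1, 2 and 3. For miR-10a it made up 0.702%, 0.532% and 0.307% in CIH libraries, and 0.722%, 0.497% and 0.0515% in control libraries. Both hairpins had their lowest passenger share in control library 3 and their next lowest in CIH library 3. There the 5p strand outnumbered the 3p strand 2445 to 1 for miR-10b and 1941 to 1 for miR-10a in control library 3, against 703 to 1 and 325 to 1 in CIH library 3.

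Between CIH and control the log2 ratio of 5p to 3p averaged 8.39 ± 0.93 and 9.11 ± 1.88 for miR-10b, a difference of -0.71 (two-sided exact permutation p = 0.6), and 7.66 ± 0.62 and 8.51 ± 2.03 for miR-10a, a difference of -0.85 (p = 0.7; SD, n = 3 each, both adjusted p = 0.7). Without control library 3 both turned, to 0.36 and 0.31. For miR-615 and miR-196a the lesser strand had at most 2 and 5 counts in a library, so their strand ratios hold little information (exact permutation p = 0.6 and 0.7). The ratio of miR-196a-5p to miR-196b-5p, with 0 or 1 counts of miR-196b-5p in 4 libraries, differed by -1.17 (exact permutation p = 0.1, the smallest possible, adjusted p = 0.6). With 5 added to both counts in place of 0.5 it differed by -0.41 (exact permutation p = 0.6).

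Other hairpins showed how far strand ratios moved in the libraries numbered 3. Of 104 hairpins with both strands listed (leading strand at a mean of 10 CPM or more, the lesser at 1 CPM or more), 60 had a larger log2 ratio of leading to lesser strand in control library 3 than on average in the libraries numbered 1 and 2, with a median shift of 0.40. The shift of miR-10a was 3.50 and that of miR-10b was 3.31, exceeded by 6 and 7 hairpins. In CIH library 3 the median shift was 0.39, and the shifts of miR-10a and miR-10b were 0.998 and 1.51, exceeded by 38 and 17 hairpins. These are descriptions of single libraries.

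**Figure D5:**
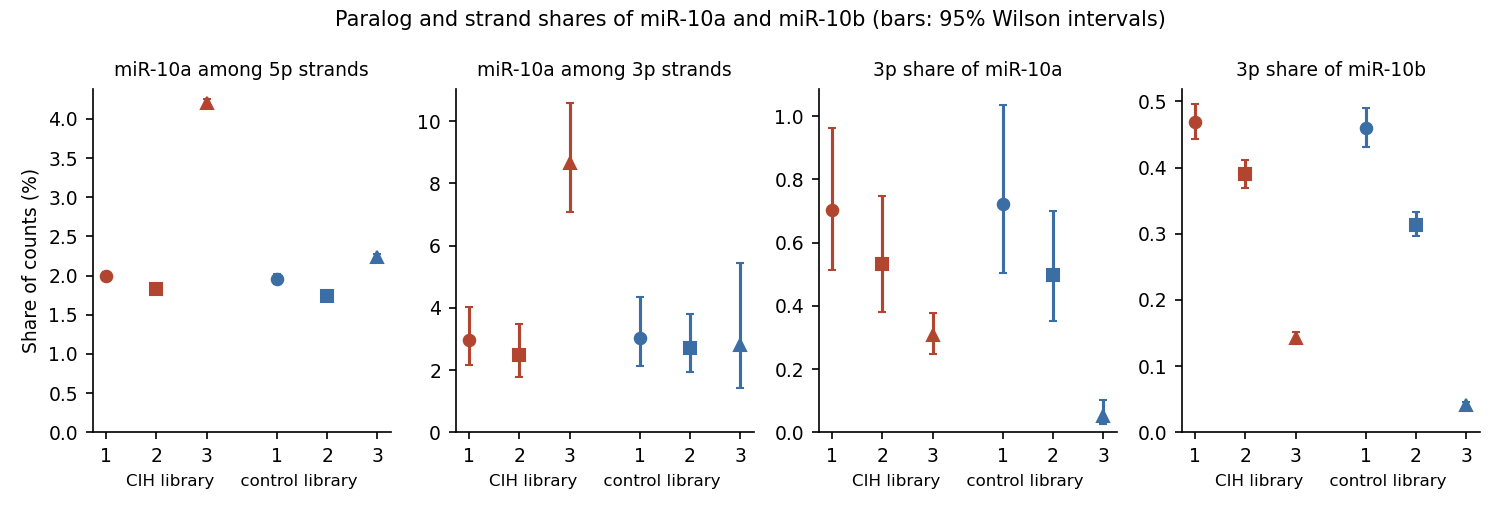
Share of counts in % (y axis) by library, CIH (red) left of control (blue), with 95% Wilson intervals that cover counting error only: miR-10a among the 5p and among the 3p strands of miR-10a and miR-10b, and the 3p strand within miR-10a and within miR-10b. CIH library 3 is highest in the first panels (4.20% and 8.67%), and control library 3 is lowest in the last panels (0.0515% and 0.0409%).

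Summed by cluster, levels did not separate the groups. The Hoxd sum averaged 41956 ± 12802 CPM in CIH and 50472 ± 27481 CPM in control, the Hoxb sum of miR-10a 1282 ± 1048 and 1061 ± 711 CPM, and the Hoxc sum of miR-615 9.17 ± 6.92 and 7.89 ± 0.50 CPM (SD over 3 libraries a group; each of the 3 had an exact permutation p = 0.7, two-sided, and 0.84 after adjustment over 6 sums). The miR-196a sum averaged 4.92 ± 6.13 CPM in CIH and 4.12 ± 2.64 CPM in control (exact permutation p = 1). All 10 names together summed to 43252 ± 13849 CPM in CIH libraries, against 51545 ± 28192 CPM in control libraries (exact permutation p = 0.7). Without control library 3 the Hoxd sum was higher in CIH by 7268 CPM where all 6 libraries gave -8516 CPM. After TMM scaling the difference over all 6 was -23961.6 CPM for the Hoxd sum and -24145.3 CPM for all 10 names (exact permutation p = 0.9 for both).

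Likeness between profiles was measured as the root mean square difference of mean-centred log2 CPM over the 6 libraries, for members and 254 other miRNAs whose mean reached 10 CPM. The profile nearest to miR-10b-5p was miR-148b-3p (0.230), followed by miR-99b-3p (0.237) and miR-106b-3p (0.257), where the median over the 254 was 1.02. For miR-10a-5p the nearest were miR-361-3p (0.2095), miR-28a-3p (0.242) and miR-25-3p (0.253). miR-10a-5p and miR-10b-5p stood 0.443 apart. The passenger miR-10b-3p was nearest to let-7d-3p (0.168), miR-501-3p (0.171) and miR-194-5p (0.211), and stood 1.26 from its own guide miR-10b-5p, further than the median of 0.771 over the 254.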

How the data were processed

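The authors deposited 1 table of raw counts per library, with a whole number for each mature miRNA and no normalization. The header of 3 tables says FPKM, but their values are whole numbers and were used as counts. Tools listed in the submitters' processing notes are DESeq 1.8.3 and featureCounts 1.5.0-p3, with build GRCm38. Trimming, aligner and miRBase release: not given in the sources used here. Known names in all 6 tables (929, at least 99.97% of each library) entered the fits, and the tables hold 0 columns of other samples. After the filter on low counts, 456 were tested in all 6 libraries and 459 in the libraries numbered 1 and 2.

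Counts were tested with edgeR 4.0.16 (robust quasi-likelihood F test, TMM, filterByExpr, file totals as library sizes, Benjamini-Hochberg over all miRNAs tested, threshold 0.05) in R 4.3.3. DESeq2 1.42.0 and limma 3.58.1 (voom) were alternatives. SE is the log2 difference over the root of F. Ratios had 0.5 added to both counts, log2 CPM had 0.5 added, and exact permutation tests ran in scipy 1.17.1. Python 3.11.15, pandas 2.3.3, numpy 2.4.6 and matplotlib 3.10.9 were used. The edgeR fits of CIH against control were tried on simulated counts, and the exact tests on small cases with a known answer. The set and interaction fits, DESeq2 and limma-voom were not tried in this way.

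Libraries of the same number deviated together from their group means (correlations 0.30, 0.34 and 0.40). The numbers were taken as pairs in the blocked fit. CIH 2 with control 1 correlated at 0.399 and CIH 1 with control 2 at 0.19, so the correlations set the pair numbered 3 apart but do not tell number 1 from number 2. Replicates of a group differed by more than counting noise (a chi-square over its degrees of freedom of at least 135). The members, lists and comparisons were chosen with earlier results of these data known. All members are named, the miR-99 and miR-100 relatives beside them, the 5 most abundant other miRNAs, and the 3 nearest profiles of each member with a mean of at least 10 CPM. No mature sequence is printed. Alternatives were other scalings, tests, filters and thresholds, the set without group in the model, leaving out the 10 most abundant other miRNAs, the block, and leaving out each library. The 3p ratio of miR-10a to miR-10b was added after seeing the data.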

Additional observations from a re-analysis of the deposited data

Results flagged for a closer look

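The CIH effect on miR-10b-5p differed between the pair numbered 3 and the libraries numbered 1 and 2 by a log2 difference of -1.48 (interaction of group and set, edgeR's quasi-likelihood test, adjusted p = 0.00198). That on miR-615-3p differed by -3.13 (adjusted p = 0.000536), at 2.75 CPM in CIH library 3 and 8.11 CPM in control library 3. The pair has 1 library per group, and such differences were called for 30.3% of all tested miRNAs.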

How the results depend on the processing

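In the comparisons of CIH with control, 0 members were called in all 6 libraries under any alternative run. In the libraries numbered 1 and 2 the exception was miR-615-3p without CIH library 2, a fit with 1 CIH library left. Most log2 differences were smaller than their SE, and several signs turned between settings. Why they turned was not tested. With TMM scaling, CIH minus control turned to -182.8 CPM for the Hoxb sum, -0.748 CPM for miR-196a and -0.252 CPM for the Hoxc sum. The miR-196a sum also turned to -1.03 CPM without the 10 most abundant other miRNAs and -1.29 CPM in the libraries numbered 1 and 2. On total counts, the log2 difference of CIH over control was 0.27 for miR-10a-5p, 0.27 for miR-196a-5p and 0.21 for miR-615-3p in all 6 libraries, and -0.00357 for miR-10b-5p in those numbered 1 and 2. The interaction was 0.34 for miR-10a-5p, and the set difference of miR-10a-3p was -0.25 on total counts and -0.091 without a filter. Without a filter miR-615-3p stood at 0.00355 in all 6 libraries. At an adjusted p of 0.1, 65 miRNAs were called in the libraries numbered 1 and 2. Between sets, total counts gave 60 miRNAs and 1 member called, against 114 and 4.

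With the replicate number as a block, 0 miRNAs were called in all 6 libraries and 48, of which 0 members, in the libraries numbered 1 and 2. The block turned miR-10a-5p to 0.000667 and changed no other direction or call of a member.

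Leaving out 1 library at a time gave differences of log2 strand ratios of -1.57 to 0.31 for miR-10a, -1.39 to 0.36 for miR-10b, -0.14 to 0.77 for miR-615 and -1.71 to 0.90 for miR-196a. The miR-10a to miR-10b ratio ran from -0.042 to 0.57. Sums ran from -0.0965 to 0.342 CPM (Hoxa), -382.8 to 631.2 CPM (Hoxb), -2.74 to 2.75 CPM (miR-196a), -2.38 to 4.49 CPM (Hoxc), -17802.5 to 7268 CPM (Hoxd) and -17790.8 to 7903 CPM (all members). In all 6 libraries, log2 differences ran from -1.11 to 1.09 for miR-10a-5p, -0.98 to 0.40 for miR-10b-5p, -2.17 to 1.09 for miR-196a-5p and -0.56 to 0.39 for miR-615-3p. In the libraries numbered 1 and 2, 9 to 97 miRNAs and 0 to 1 members were called, and miR-10b-5p ran from -0.043 to 0.39. Between sets, 2 to 253 miRNAs and 0 to 5 members were called, with miR-10a-3p at -1.07 to 0.81 and miR-615-3p at -2.18 to 1.001. Where this left 1 library in an arm, it was assumed to vary like the others. Counts of 5 or fewer limit what can be said of the 3p names of miR-196a and of miR-615-5p.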
